A study of Mus musculus with 12 samples.

Results

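The genes described here are 10 members of separate families of calcium- or sugar-binding proteins in mouse T cells. They are the annexins Anxa1, Anxa2, Anxa5 and Anxa6, the S100 genes S100a4, S100a6, S100a10 and S100a11, and the galectins Lgals1 and Lgals3. They were taken by name from the array's 22180 genes with a cluster of a single symbol, and each of the 10 had 1 such cluster, so no choice between clusters was needed. RNA was measured on 12 Affymetrix arrays, 3 for each of 4 groups (replicates A to C), from C57BL6 T cells that report Foxp3, which directs the regulatory T cell programme, by GFP. The T cells (200000 a well) had been stimulated with 20000 BALB/c CD11c dendritic cells, which differ from them in tissue type. CD8 Foxp3-positive cells were GFP-positive CD8 cells after 4 days with IL-2 (5 ng/mL), TGF-β (5 ng/mL) and retinoic acid (40 nM). CD8 control cells were GFP-negative CD8 cells after 4 days with the same IL-2 alone. CD4 Foxp3-positive cells were GFP-positive CD4 cells after 5 days with IL-2, TGF-β and retinoic acid at those doses, and CD4 control cells were GFP-negative CD4 cells after 5 days with IL-2 alone. Treatment and GFP sort changed together, and lineage and days of culture changed together, so neither pair can be told apart. Wells were pooled before the sort and nothing says that replicates came from separate cultures or animals, so p-values speak for the spread among these arrays alone, and part of it may be technical.

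Annexins are cytosolic proteins that bind acidic phospholipids when calcium rises, and they organise membranes during secretion, endocytosis and repair. S100 proteins are small dimers with EF-hand calcium sites that bind target proteins, among them annexins and myosin. Galectins bind β-galactoside sugars on glycoproteins, can be secreted without a signal peptide, and on T cells alter receptor clustering, adhesion and survival. In T cells, several of these genes are known to be higher in effector and memory cells than in naive cells, and galectin-1 is also known as a product of regulatory T cells.

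Promoter windows from RefSeq (build GRCm38.p6, 250 bases before to 50 after the annotated start) were found for 7 of the 10 genes, and not listed for Anxa6, S100a10 and Lgals1. Windows of 4 genes are shown because their expression differed in distinct ways. Anxa1 and Anxa2 had the largest differences from control in CD8 cells, S100a6 differed unequally between lineages, and S100a11 did not pass the test in either lineage. Each window reads 5′ to 3′ on the gene's strand. Capitals mark matches on either strand to an AP-1 site (spelled TGANTCA, where N is any base), to the TATA box spelled TATAAA, or to the GC box spelled GGGCGGG. The windows lie at chr19:20390622-20390921 on the minus strand (Anxa1), chr9:69453433-69453732 on the plus strand (Anxa2), chr3:90612644-90612943 on the plus strand (S100a6) and chr3:93520246-93520545 on the plus strand (S100a11).
Anxa1: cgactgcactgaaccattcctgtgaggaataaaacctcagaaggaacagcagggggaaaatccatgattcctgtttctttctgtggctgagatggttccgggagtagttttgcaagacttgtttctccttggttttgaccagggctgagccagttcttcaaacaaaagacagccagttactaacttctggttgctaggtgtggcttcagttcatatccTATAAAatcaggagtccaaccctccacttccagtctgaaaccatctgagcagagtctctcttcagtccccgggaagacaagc
Anxa2: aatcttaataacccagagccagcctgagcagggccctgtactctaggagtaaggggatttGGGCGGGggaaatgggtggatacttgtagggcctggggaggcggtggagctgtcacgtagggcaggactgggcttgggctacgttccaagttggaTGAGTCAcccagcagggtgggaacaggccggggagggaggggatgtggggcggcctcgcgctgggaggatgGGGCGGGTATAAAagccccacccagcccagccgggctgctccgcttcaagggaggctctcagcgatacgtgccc
S100a6: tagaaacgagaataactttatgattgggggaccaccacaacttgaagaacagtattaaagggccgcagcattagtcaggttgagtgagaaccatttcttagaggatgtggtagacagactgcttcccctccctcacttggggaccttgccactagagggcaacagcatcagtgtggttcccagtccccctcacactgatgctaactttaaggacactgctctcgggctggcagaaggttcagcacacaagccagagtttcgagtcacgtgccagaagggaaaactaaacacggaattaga
S100a11: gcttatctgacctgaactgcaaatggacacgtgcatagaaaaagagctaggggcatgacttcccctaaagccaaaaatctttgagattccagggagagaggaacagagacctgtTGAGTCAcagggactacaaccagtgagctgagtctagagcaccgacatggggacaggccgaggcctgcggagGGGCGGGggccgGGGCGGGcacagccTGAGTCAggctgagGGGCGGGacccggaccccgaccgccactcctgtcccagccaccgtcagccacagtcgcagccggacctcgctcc
An AP-1 match was present in 2 of the 7 windows, those of Anxa2 (1 match) and S100a11 (2 matches). Of all 32851 windows in the RefSeq table, 7.81% held one. TATA matches lay in 3 windows, at -32 from the start in Anxa1, -17 in Anxa2 and -31 in S100a4 (first base), against 13.6% of all windows. GC boxes were found in 3 windows (Anxa2, S100a11 and Lgals3), against 25.6% of all windows. In Anxa2 the GC box nearest the start ran directly into the TATA match, and no other matches touched or overlapped. The windows of S100a6 and Anxa5 held none of the 3 motifs. A match is a run of letters and was not tested for binding.

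**Figure D1:**
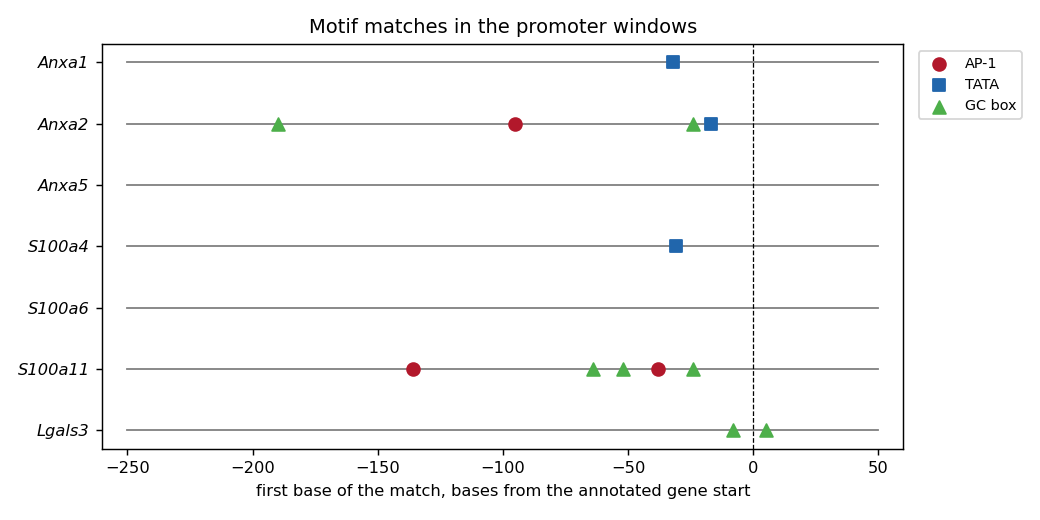
Matches to the AP-1, TATA and GC box motifs in the 7 available promoter windows, plotted by the distance in bases of their first base from the annotated start (dashed line), 1 row a gene. Anxa2 carries all 3 motifs, S100a11 carries 2 AP-1 matches, and Anxa5 and S100a6 carry none.

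Foxp3 averaged 12.48 in CD8 Foxp3-positive against 5.66 in CD8 control cells, while the CD4 means were 12.44 with Foxp3 sorted positive and 5.76 in controls, all as log2 expression. Cd8b1 averaged 11.97 and 11.86 in the CD8 groups, and Cd4 averaged 11.92 and 12.31 in the CD4 groups, each with the Foxp3-positive cells first. Cd4 in the CD8 groups averaged 5.17 and 5.36. In CD4 cells the CD8 lineage genes were not level: Cd8b1 averaged 6.17 in Foxp3-positive against 7.72 in control cells (log2 fold change -1.55, limma adjusted p = 2.81e-06) and Cd8a 7.54 against 6.51 (1.03, adjusted p = 0.0273). Of the signalling chains of the T cell receptor complex, Cd3d and Cd3g were lower and Cd3e was higher in CD4 Foxp3-positive than in CD4 control cells, and Cd3e was higher in CD8 Foxp3-positive than in CD8 control cells. The part of these shifts in the CD4 differences below was not tested. Pearson r over all genes, a description since genes are no replicates, was 0.992 to 0.994 within groups and 0.962 to 0.991 between them. Macrophages and dendritic cells also express members of these families. Of 9 measured macrophage and monocyte markers, 1 had a mean above 5.60, the median of all genes. Their mean per array was 5.15 to 5.60 in CD8 Foxp3-positive, 5.02 to 5.16 in CD8 control, 5.11 to 5.30 in CD4 Foxp3-positive and 5.07 to 5.29 in CD4 control cells. In CD8 cells 3 of them were higher in the Foxp3-positive group (Lyz2, C1qb and Mpeg1) and 1 was lower (Cd68). In CD4 cells Lyz2 and Mpeg1 were higher and Cd68 was lower. Lyz2 averaged 6.37 against 4.55 in CD8 Foxp3-positive and control cells, and 5.51 against 4.45 in the CD4 groups. Cd68 averaged 7.92 against 8.56 and 7.38 against 8.57 in the same order. C1qb averaged 5.95 against 5.23 in the CD8 groups. Of 10 dendritic cell markers 4 had a mean above 5.60, and their means per array were 5.85 to 6.02, 6.04 to 6.10, 5.92 to 6.20 and 6.16 to 6.24 in the same order of groups. In CD8 cells Cst3 was higher and Itgax and Batf3 were lower, and in CD4 cells Ccl17 was higher and Batf3 was lower. Itgax averaged 4.77 against 6.53 in CD8 Foxp3-positive and control cells. Batf3 averaged 5.76 against 6.72 in those groups, and 5.56 against 7.12 in the CD4 groups. Cd209a averaged 9.23 to 9.47 over the groups, Cst3 8.16 to 8.54 and Ccl22 5.65 to 7.22, while Flt3, Zbtb46 and Xcr1 of dendritic cells and Adgre1 and Csf1r of macrophages averaged under 5.60 in every group. Of 4 B cell markers, Cd79a and Cd79b were higher in CD8 Foxp3-positive than in CD8 control cells. Cd79b was also higher in CD4 Foxp3-positive than in CD4 control cells. Only Cd79b averaged over 5.60 (8.47 against 7.37 in the CD8 groups and 6.83 against 6.06 in the CD4 groups). Cd79a, Ms4a1 and Pax5 averaged under 5.60 in every group. The part of other cells in the results below was not tested. In bulk RNA, fewer cells that carry a transcript and less of it per cell cannot be told apart.

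Most of the 10 genes were lower in Foxp3-positive cells than in controls, in both lineages. In CD8 cells 8 of the 10 genes fell, 0 rose and 2 did not pass (limma, Benjamini-Hochberg adjusted p under 0.05 over all 22180 genes). Among all genes 20% passed in this comparison and 10.6% passed as lower. In CD4 cells 7 of 10 fell, 0 rose and 3 did not pass, where 22.5% of all genes passed and 10.4% passed as lower. The median log2 fold change of the 10 genes, Foxp3-positive minus control, was -0.84 in CD8 and -1.21 in CD4 cells, beside -0.02 and 0 over all genes. A fall of at least 2-fold was seen for 4 genes in CD8 cells (Anxa1, Anxa2, S100a4 and Lgals3) and for 6 in CD4 cells, where S100a6 and Lgals1 joined those 4. No Foxp3-positive array reached a control array for 9 of the 10 genes in each lineage. The exceptions were S100a11 in CD8 and S100a10 in CD4 cells, and among all genes such a separation was seen for 33.5% in CD8 and 37.8% in CD4 cells.

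**Figure D2:**
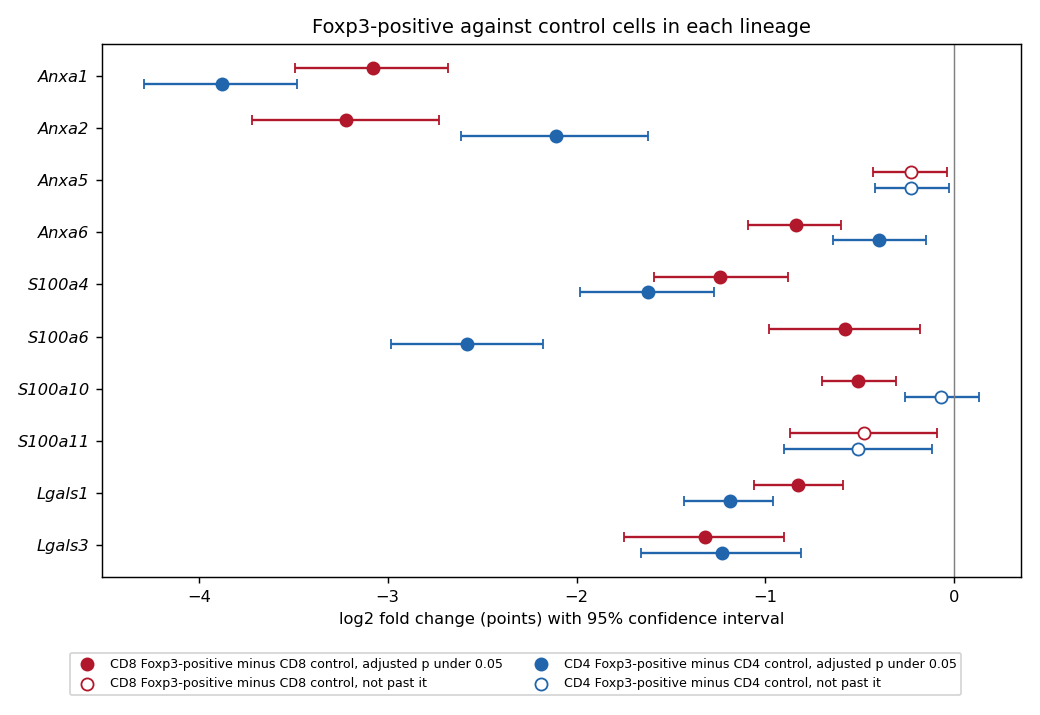
Log2 fold change of each gene, Foxp3-positive minus control, in CD8 cells (red) and CD4 cells (blue), with the 95% confidence interval of the limma fit to 3 arrays a group. Filled points passed an adjusted p under 0.05 and open points did not. Every point lies below 0, from -3.88 for Anxa1 to -0.07 for S100a10 in CD4 cells.

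Anxa1 encodes annexin A1, a protein induced by glucocorticoids that limits inflammation through formyl peptide receptors. Its log2 expression was 5.44, 5.28 and 4.97 in CD8 Foxp3-positive cells, against 8.49, 8.57 and 7.87 in CD8 controls. CD4 Foxp3-positive cells stood at 4.96, 5.14 and 4.73, against 8.73, 9.06 and 8.69 in CD4 controls. All 6 Foxp3-positive arrays lay more than 2 log2 units below every control array. Anxa1 fell 8.46-fold in CD8 cells (log2 fold change -3.08 ± 0.19 SE, limma adjusted p = 1.33e-07) and 14.7-fold in CD4 cells (-3.88 ± 0.19, adjusted p = 1.22e-08). The Foxp3-positive means of 5.23 and 4.94 lay under the median gene and no background level was available, so the folds describe array signal, and the fold in RNA may differ.

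Anxa2 encodes annexin A2, which pairs with the S100a10 product and links membranes to actin and plasminogen. It stood at 7.91, 7.58 and 7.41 in CD8 Foxp3-positive cells, against 11.01, 10.82 and 10.73 in CD8 controls. In CD4 cells the values were 8.51, 8.01 and 9.20 in the Foxp3-positive group, against 10.64, 10.76 and 10.66 in controls. Both control groups were tightly grouped, while the CD4 Foxp3-positive arrays spread over more than a log2 unit. Anxa2 fell 9.33-fold in CD8 cells (log2 fold change -3.22 ± 0.23 SE, limma adjusted p = 5.83e-07) and 4.32-fold in CD4 cells (-2.11 ± 0.23, adjusted p = 1.72e-05).

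Anxa6 encodes annexin A6, a larger annexin of endosomes and the plasma membrane that is involved in cholesterol traffic. Its level was 10.79, 10.79 and 10.52 in CD8 Foxp3-positive against 11.62, 11.54 and 11.46 in CD8 control cells. In CD4 cells it was 10.70, 10.40 and 10.81 in the Foxp3-positive group against 11.02, 11.03 and 11.06 in controls. The groups did not overlap in either lineage, and the distance was smaller in CD4 cells. Anxa6 fell 1.79-fold in CD8 cells (log2 fold change -0.84 ± 0.11 SE, limma adjusted p = 0.000139) and 1.32-fold in CD4 cells (-0.40 ± 0.11, adjusted p = 0.0222). The CD4 call was lost without CD4 Foxp3-positive replicate B or without replicate A, B or C of the CD4 controls (adjusted p from 0.0127 to 0.1 over all 12 single arrays left out).

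Anxa5 encodes annexin A5, the phosphatidylserine-binding protein used as a stain for dying cells. Its means were 9.94 ± 0.04 and 10.17 ± 0.08 in CD8 Foxp3-positive and control cells, and 10.07 ± 0.11 and 10.30 ± 0.10 in CD4 Foxp3-positive and control cells (SD, n = 3). The difference was -0.23 in each lineage and did not pass (limma adjusted p = 0.0967 in CD8 and 0.0937 in CD4 cells). Its confidence interval was -0.43 to -0.04 in CD8 cells and -0.42 to -0.03 in CD4 cells, so any fall was under 1 log2 unit. When the test was limited to genes at or above the median level, Anxa5 passed in both lineages (adjusted p = 0.0348 and 0.0376).

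S100a4 encodes a protein that binds the heavy chain of non-muscle myosin and is linked to cell motility. It was at 7.49, 7.60 and 7.43 in CD8 Foxp3-positive cells, against 8.86, 8.97 and 8.39 in CD8 controls. CD4 Foxp3-positive cells had 6.32, 5.85 and 6.0, against 7.77, 7.84 and 7.43 in CD4 controls. CD4 Foxp3-positive arrays were the lowest of all, and CD8 controls the highest. S100a4 fell 2.36-fold in CD8 cells (log2 fold change -1.24 ± 0.16 SE, limma adjusted p = 0.000133) and 3.08-fold in CD4 cells (-1.62 ± 0.16, adjusted p = 9.48e-06).

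S100a6 encodes calcyclin, which binds several annexins and the ubiquitin ligase component Cacybp. CD8 Foxp3-positive cells were at 9.92, 10.09 and 9.75, against 10.51, 10.66 and 10.34 in CD8 controls. CD4 Foxp3-positive cells were at 8.17, 7.86 and 8.74, against 10.83, 10.98 and 10.69 in CD4 controls. The CD4 Foxp3-positive group stood apart, more than 1 log2 unit below all 9 other arrays. S100a6 fell 5.97-fold in CD4 cells (log2 fold change -2.58 ± 0.18 SE, limma adjusted p = 4.46e-07). In that comparison Cd8b1 was lower and Cd8a was higher, and their part was not tested. In CD8 cells S100a6 fell 1.5-fold (-0.58 ± 0.18, adjusted p = 0.0421). That CD8 call was lost in 8 of 12 fits that left out 1 array. Those arrays were CD8 Foxp3-positive replicates A and C, CD8 control replicates A and B, CD4 Foxp3-positive replicate A and all 3 CD4 controls, and adjusted p ran from 0.0066 to 0.146 over the 12 fits.

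S100a10 encodes the annexin A2 partner p11, an S100 protein that no longer needs calcium for binding. It was at 11.97, 11.79 and 11.92 in CD8 Foxp3-positive against 12.41, 12.28 and 12.51 in CD8 control cells. In CD4 cells it was at 11.92, 11.84 and 11.94 in the Foxp3-positive group against 11.90, 12.02 and 11.98 in controls. Only the CD8 controls stood apart from the other 3 groups. S100a10 fell 1.42-fold in CD8 cells (log2 fold change -0.51 ± 0.09 SE, limma adjusted p = 0.00117) and did not pass in CD4 cells (-0.07 ± 0.09, confidence interval -0.26 to 0.13, adjusted p = 0.663). Its CD4 difference turned to 0.05 after quantile normalization over the named genes.

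S100a11, which encodes a partner of annexin A1, averaged 10.65 ± 0.34 and 11.13 ± 0.18 in CD8 Foxp3-positive and control cells (SD, n = 3). In CD4 Foxp3-positive and control cells it averaged 10.09 ± 0.25 and 10.61 ± 0.22. CD8 Foxp3-positive replicate C, at 11.04, lay within the range of the CD8 controls. Neither difference passed, with -0.48 (confidence interval -0.87 to -0.09, limma adjusted p = 0.0832) in CD8 cells and -0.51 (-0.90 to -0.12, adjusted p = 0.0598) in CD4 cells. Without CD8 Foxp3-positive replicate C, the CD8 difference was -0.68 and passed (adjusted p = 0.0155). When the test was limited to genes at or above the median level, S100a11 passed in both lineages (adjusted p = 0.0396 in CD8 and 0.0302 in CD4 cells), and in CD4 cells it also passed with trended and robust eBayes (0.045) and with array weights (0.0368).

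Lgals1 encodes galectin-1, a dimeric lectin that can trigger death of activated T cells. It stood at 11.94, 11.90 and 11.94 in CD8 Foxp3-positive cells, against 12.80, 12.87 and 12.61 in CD8 controls. CD4 Foxp3-positive cells were at 11.87, 11.53 and 11.89, against 12.93, 13.03 and 12.91 in CD4 controls. The 6 Foxp3-positive arrays all lay below the 6 control arrays. Galectin-1 RNA fell 1.78-fold in CD8 cells (log2 fold change -0.83 ± 0.11 SE, limma adjusted p = 0.00011) and 2.29-fold in CD4 cells (-1.19 ± 0.11, adjusted p = 3.45e-06).

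Lgals3 encodes galectin-3, which binds branched N-glycans on the T cell receptor and other surface proteins. Its level was 7.65, 7.43 and 7.51 in CD8 Foxp3-positive against 9.02, 8.84 and 8.69 in CD8 control cells. CD4 Foxp3-positive cells were at 7.06, 7.0 and 7.89, against 8.43, 8.75 and 8.48 in CD4 controls. No Foxp3-positive array reached a control array. Lgals3 fell 2.50-fold in CD8 cells (log2 fold change -1.32 ± 0.20 SE, limma adjusted p = 0.000301) and 2.35-fold in CD4 cells (-1.23 ± 0.20, adjusted p = 0.000451).

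**Figure D3:**
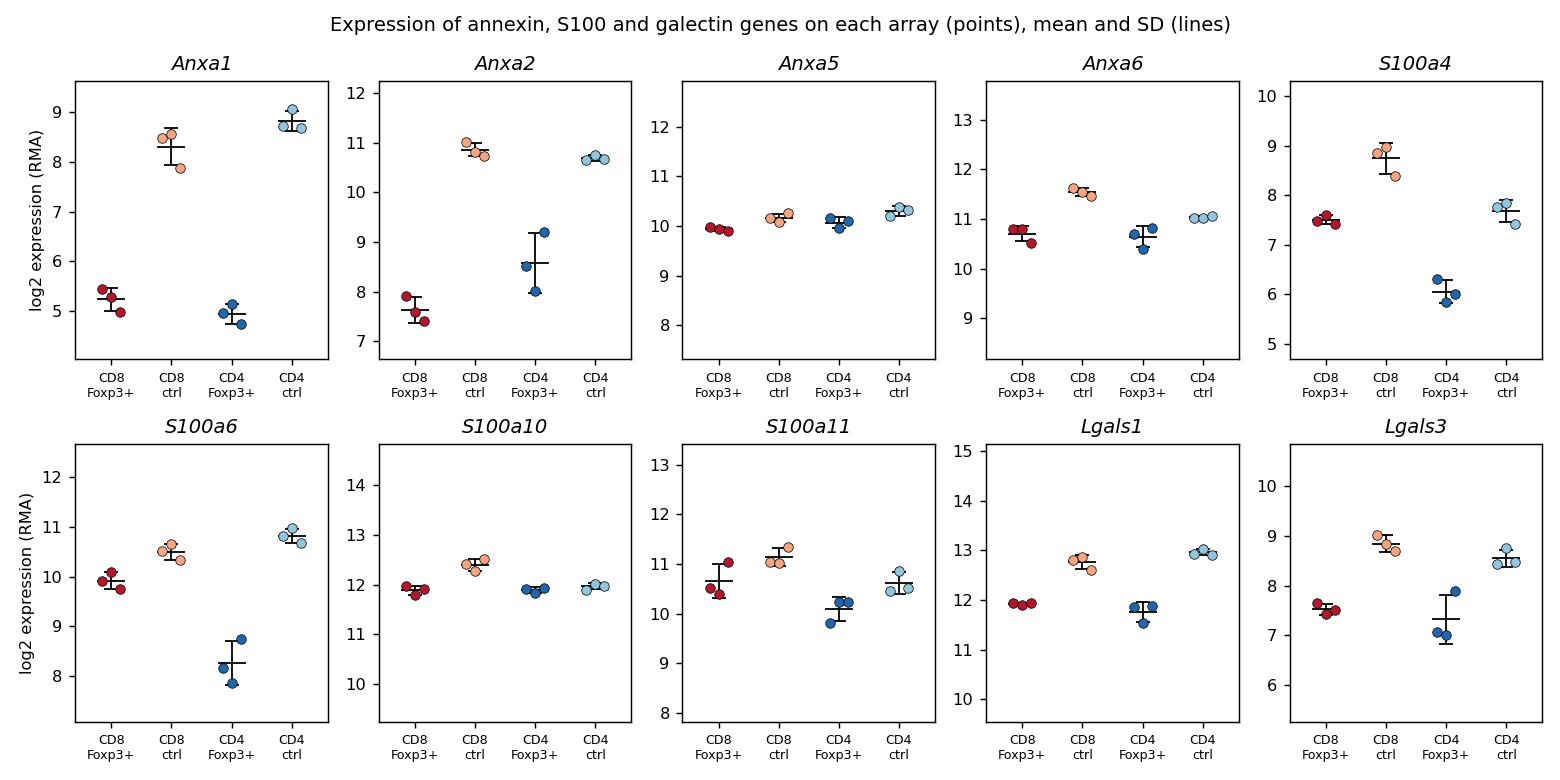
Log2 expression (RMA) of the 10 genes on each of the 12 arrays (points, replicates A to C from left to right), with the mean and SD of the 3 arrays of a group (lines). All panels span the same number of log2 units, so heights of differences can be set side by side. Anxa1 and Anxa2 show the widest gaps between Foxp3-positive and control arrays, S100a6 is low in CD4 Foxp3-positive arrays, and Anxa5 is nearly level.

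CD4 Foxp3-positive replicate C lay above replicates A and B of its group for Anxa2 (9.20 against 8.51 and 8.01), S100a6 (8.74 against 8.17 and 7.86) and Lgals3 (7.89 against 7.06 and 7.0). Without it, the CD4 log2 fold changes were -2.43 for Anxa2, -2.82 for S100a6 and -1.52 for Lgals3. That array was also the highest of its group for Anxa6 (10.81 against 10.70 and 10.40), S100a10, S100a11 and Lgals1. For Anxa5 and S100a4 it lay between the others. Anxa1 went the other way on that array, where it had its lowest value of the group (4.73).

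The interaction of the linear model asked whether the Foxp3-positive effect differed between lineages. It passed for 3 of the 10 genes, where 13.5% of all genes passed. When the test was limited to genes at or above the median level, it passed for 5, where 32.8% of the genes tested passed. S100a6 fell less in CD8 than in CD4 cells, with effects of -0.58 and -2.58 and a difference of 2.00 ± 0.26 SE (limma adjusted p = 0.000314). That call held with each of the 12 arrays left out in turn (1.80 to 2.24). Anxa2 fell more in CD8 than in CD4 cells (difference -1.11 ± 0.32, adjusted p = 0.0392), and so did S100a10 (-0.44 ± 0.13, adjusted p = 0.0369). Both calls were lost in 9 of 12 fits that left out 1 array. The Anxa2 call was kept only without CD8 Foxp3-positive replicate A or CD4 Foxp3-positive replicate B or C (adjusted p from 0.00508 to 0.0929), and the S100a10 call only without CD8 Foxp3-positive replicate A, CD8 control replicate B or CD4 Foxp3-positive replicate B (0.0268 to 0.0886). For the other 7 genes the interaction did not pass in the main fit, with intervals such as 0.23 to 1.38 for Anxa1, -0.12 to 0.89 for S100a4 and -0.69 to 0.51 for Lgals3.

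Between the Foxp3-positive groups, 3 of the 10 genes differed, where 4.71% of all genes did. S100a6 was 3.17-fold higher in CD8 than in CD4 Foxp3-positive cells (log2 fold change 1.66 ± 0.18 SE, limma adjusted p = 0.000181) and S100a4 was 2.73-fold higher (1.45 ± 0.16, adjusted p = 0.000219). Anxa2 was 1.92-fold lower (-0.94 ± 0.23, adjusted p = 0.0344). The Anxa2 call was lost without CD8 Foxp3-positive replicate B or C or CD4 Foxp3-positive replicate A or C, and its value was -0.63 without CD4 Foxp3-positive replicate C. It was also lost when only the arrays of these groups entered the fit (adjusted p = 0.133). The other members, Anxa1, Anxa5, Anxa6, S100a10, S100a11, Lgals1 and Lgals3, did not pass, with log2 differences from -0.14 to 0.56.

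Between the control groups, 3 of the 10 genes differed, all higher in CD8 cells, where 20.9% of all genes differed. When the test was limited to genes at or above the median level, 5 differed, where 45% of the genes tested did. S100a4 was 2.09-fold higher in CD8 than in CD4 controls (log2 fold change 1.06 ± 0.16 SE, limma adjusted p = 0.000481). Anxa6 was 1.42-fold higher (0.51 ± 0.11, adjusted p = 0.00588) and S100a10 1.35-fold higher (0.44 ± 0.09, adjusted p = 0.00355). Anxa1 (-0.52 ± 0.19, adjusted p = 0.0715) and S100a11 (0.53 ± 0.18, adjusted p = 0.0552) had differences of that size or larger and did not pass in the main fit. S100a4 was thus the 1 gene of the 10 whose lineage difference passed in both the Foxp3-positive and the control groups. S100a11 passed in neither, but was higher in CD8 cells in both and its arrays did not overlap. Its difference was 0.56 (confidence interval 0.17 to 0.95) between Foxp3-positive groups and 0.53 (0.14 to 0.92) between controls.

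By their group means, 9 of the 10 genes had both control groups above both Foxp3-positive groups. S100a11 was the exception, with CD8 Foxp3-positive cells just above CD4 controls and overlapping them. Neighbouring groups in that order overlapped in several places. The CD8 and CD4 controls overlapped for Anxa2, Anxa5 and Lgals3, and the Foxp3-positive groups overlapped for Anxa1, Anxa5, Anxa6, S100a10 and Lgals3. For S100a4 the CD8 Foxp3-positive and CD4 control arrays overlapped, for S100a10 both CD4 groups did, and for Anxa5 every neighbouring pair did. For S100a6 and Lgals1 no neighbouring groups overlapped.

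Over the 12 arrays, which share the 4 group differences, all 45 pairs of the 10 genes had a positive Pearson r, from 0.171 to 0.976 with a median of 0.742. Anxa1 and Lgals1 had the highest value (0.976), and Anxa2 and its partner S100a10 had 0.670. After each group's mean was taken out, the median was 0.245, the range -0.565 to 0.886, and 34 of 45 pairs stayed positive. Anxa2 with Lgals3 (0.886), Anxa6 (0.861) and S100a6 (0.842) had the highest of these, while Anxa1 and Anxa2 had -0.044. Anxa2, Lgals3, S100a6 and Anxa6 each had their highest value of the group on CD4 Foxp3-positive replicate C. So did S100a10, S100a11 and Lgals1, while Anxa1, Anxa5 and S100a4 did not. The part of that array in these correlations was not tested.

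**Figure D4:**
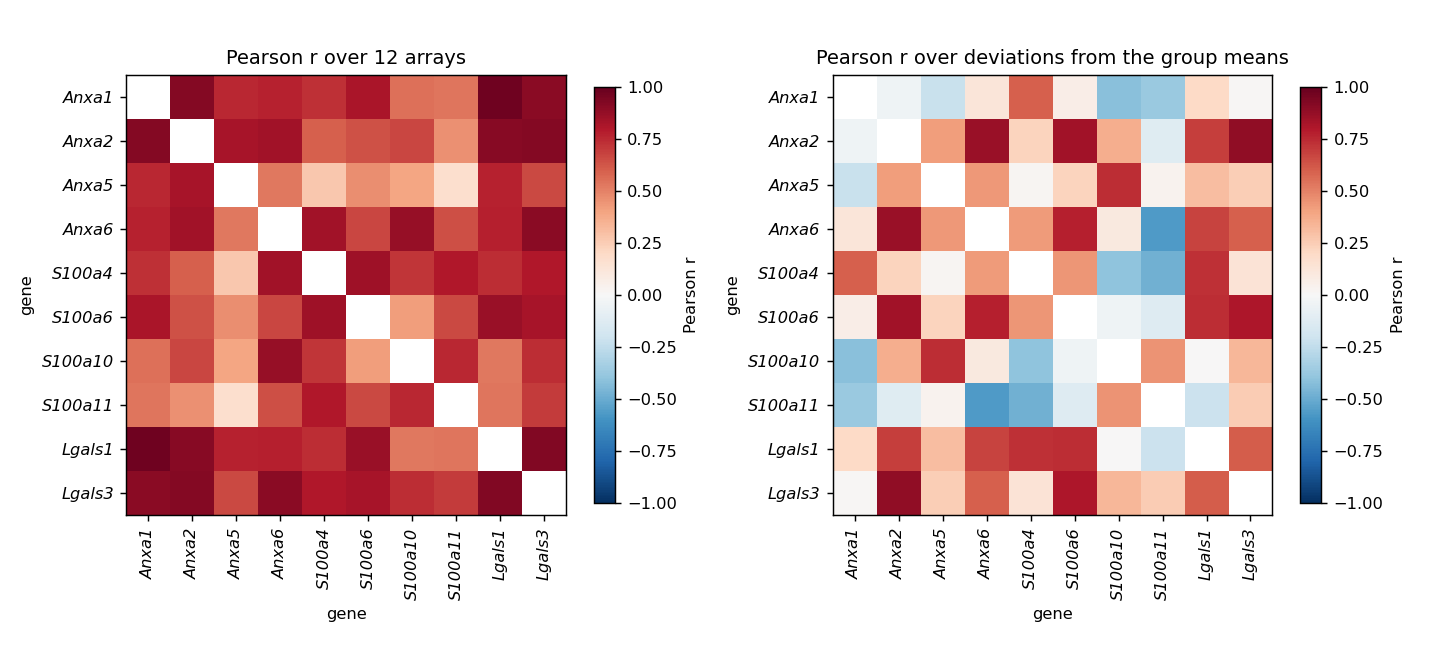
Pearson r for each pair of the 10 genes over the 12 arrays (left) and over the arrays' deviations from their group means (right), on a colour scale from -1 to 1. All 45 pairs are positive on the left, and 34 are positive on the right, where Anxa2, Anxa6, S100a6 and Lgals3 form the reddest block.

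Genes outside the 10 with the most similar pattern were ranked by Pearson r over the 12 arrays, among 10223 genes at or above the median level, with predicted genes, clone names and small RNAs passed over. For Anxa2 they were Ccr2 (0.989), Kcnq5 (0.980), Adap1 (0.979), Cobll1 (0.978) and Dusp5 (0.975). Ccr2, an inflammatory chemokine receptor, averaged 5.46 in CD8 Foxp3-positive against 9.34 in CD8 control cells, and 6.17 in CD4 Foxp3-positive against 9.13 in CD4 control cells. For S100a6 the closest were Gzmb (0.988), Gzmc (0.984), Sytl3 (0.981), Slc52a3 (0.973) and Ctsd (0.960). Granzyme B gene Gzmb averaged 11.77 in CD8 Foxp3-positive and 13.21 in CD8 control cells, against 8.71 and 13.25 in CD4 Foxp3-positive and CD4 control cells. Whether the probes of Gzmb and Gzmc also read related granzymes was not tested, so both are uncertain. These correlations share the differences between the 4 groups and have no test.

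The other relatives of the 3 families are given by count. Among all genes, 20% passed in CD8 and 22.5% in CD4 cells in either direction, and 10.6% and 10.4% passed as lower. Of 7 other annexins measured, 0 rose in either lineage, 1 fell in CD8 cells (Anxa7) and 2 fell in CD4 cells (Anxa7 and Anxa9), with list medians of -0.18 and -0.12. Anxa7, the brightest of that list and a membrane-fusion annexin, averaged 8.79 against 9.32 in CD8 Foxp3-positive and control cells (log2 fold change -0.54 ± 0.10 SE, limma adjusted p = 0.00124), and 8.41 against 9.22 in the CD4 groups (-0.81 ± 0.10, adjusted p = 3.72e-05). Of 12 other S100 genes, 2 rose and 1 fell in CD8 cells, and 0 rose and 3 fell in CD4 cells, with medians of 0.05 and -0.02. S100a3 fell in both lineages (-0.45 ± 0.14 in CD8 and -1.10 ± 0.14 in CD4 cells), with group means from 4.78 to 5.88. Its gene model overlaps that of S100a2, so its signal may not be its own. S100a1 and S100a13 rose in CD8 cells and fell in CD4 cells.

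Of 7 other galectins, 2 rose and 0 fell in CD8 cells, and 1 rose and 2 fell in CD4 cells, with medians of 0.01 and -0.06. In either direction, 20% of all genes passed in CD8 and 22.5% in CD4 cells. Lgals9, which encodes the TIM-3 ligand galectin-9 and was the brightest of the list, averaged 12.13 against 11.37 in CD8 Foxp3-positive and control cells (log2 fold change 0.76 ± 0.14 SE, limma adjusted p = 0.00126). In CD4 cells it averaged 12.01 against 11.66 and did not pass (0.36 ± 0.14, adjusted p = 0.0835). Lgals7, galectin-7 of epithelia, had values of 5.11, 4.86 and 5.10 on the CD4 Foxp3-positive arrays, against 7.32, 6.97 and 7.26 on those of CD4 controls (-2.16 ± 0.15, adjusted p = 3.52e-07). In both CD8 groups Lgals7 was under 5. Those groups and the CD4 Foxp3-positive group lay under the median gene (5.60), so its change describes array signal.

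Among 21 partners, receptors and enzymes that act on glycans, 6 rose and 6 fell in CD8 cells, and 7 rose and 4 fell in CD4 cells. The medians of that list were -0.02 and -0.06. Of all genes, 20% and 22.5% passed in either direction in CD8 and CD4 cells. Ahnak, the giant scaffold that binds the annexin A2 and S100a10 complex, fell 1.21 log2 units in CD8 (adjusted p = 2.82e-05, limma) and 1.09 in CD4 cells (adjusted p = 4.99e-05). Myof, a membrane repair ferlin, averaged 6.46 against 4.50 in CD8 Foxp3-positive and control cells, and 8.32 against 4.66 in the CD4 groups (log2 fold changes 1.96 ± 0.20 and 3.65 ± 0.20). Its rise was smaller in CD8 cells (interaction -1.70 ± 0.28, limma adjusted p = 0.00157). Both Myof control means lay under 5.60, the median of all genes, so its changes describe array signal, and those in RNA may differ. The galectin-9 receptor gene Havcr2 (TIM-3) fell to 7.04 in CD8 Foxp3-positive cells, against 10.07 in controls, and to 5.20 in CD4 Foxp3-positive cells, against 10.65 in controls. The mean of 5.20 also lay under the median gene, with the same limit.

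Mgat5 and Gcnt1, enzymes that build galectin ligands, rose in both lineages. Mgat5, which adds the N-glycan branch bound by galectin-3, averaged 9.49 against 7.57 in CD8 Foxp3-positive and control cells, and 9.55 against 7.60 in the CD4 groups (log2 fold changes 1.92 ± 0.14 and 1.94 ± 0.14, limma adjusted p = 8.19e-07 and 5.2e-07). Gcnt1, which builds core O-glycan branches bound by galectin-1, rose by 1.48 ± 0.15 in CD8 and 0.99 ± 0.15 in CD4 cells. St6gal1, also a glycan enzyme of the list, did not pass in CD8 cells (-0.28 ± 0.15) and rose in CD4 cells (0.58 ± 0.15, limma adjusted p = 0.012). Cd7, a galectin-1 receptor, rose by 2.74 ± 0.36 and 2.34 ± 0.36 in CD8 and CD4 cells. Other surface proteins of the list went the other way. Spn fell in both lineages (-0.29 ± 0.09 and -0.58 ± 0.09), and Cd44 fell in CD8 cells only (-0.74 ± 0.09). Lgals3bp, a secreted galectin-3 ligand, had log2 fold changes of -0.75 in CD8 and -2.02 in CD4 cells and fell in both, and Ptprc (CD45), the brightest of the list, did not pass in either lineage (-0.21 ± 0.10 and -0.22 ± 0.10).

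**Figure D5:**
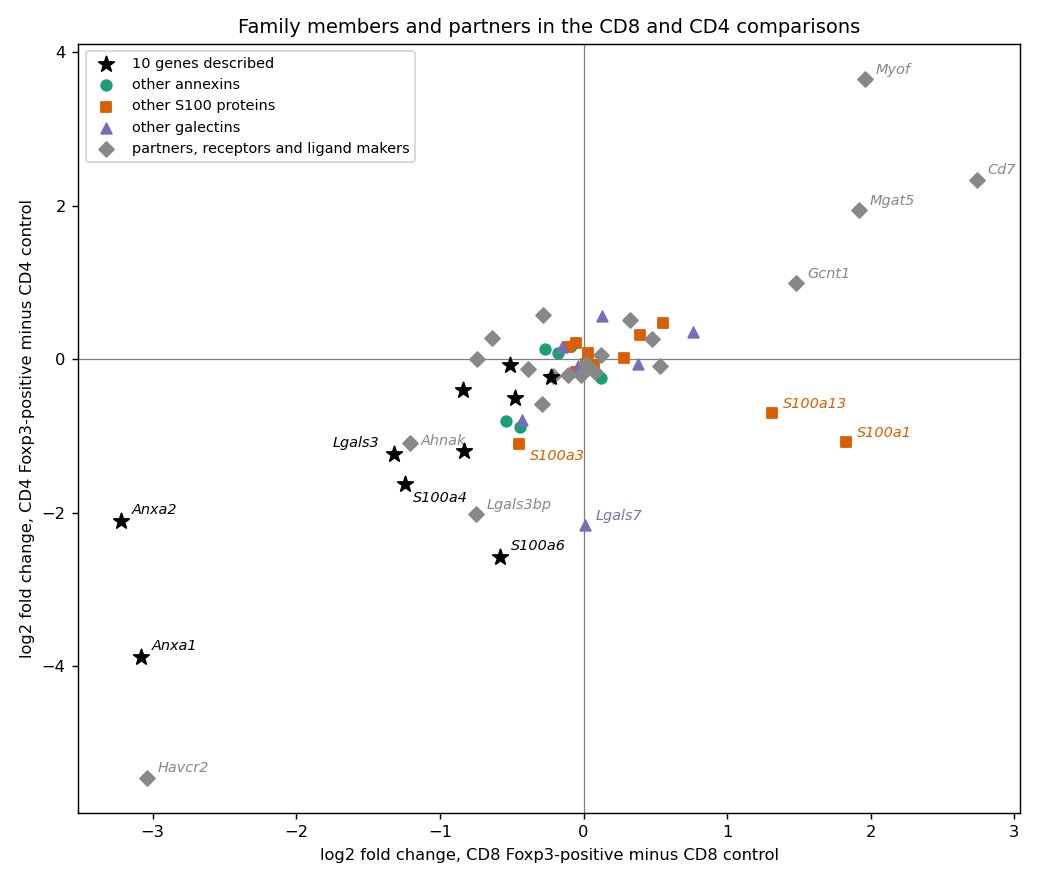
Log2 fold change, Foxp3-positive minus control, in CD8 cells (horizontal) and CD4 cells (vertical) for the 10 genes (stars), the other annexins, S100 genes and galectins, and their partners. The 10 genes lie at the lower left, Mgat5, Cd7, Gcnt1 and Myof lie at the upper right, and S100a1 and S100a13 lie at the lower right. Names are given to 5 of the stars and to all other genes that changed by at least 1 in a lineage.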

How the data were processed

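RNA (250 ng a sample) was made into biotinylated cDNA for Affymetrix GeneChips, per the labels. The authors deposited log2 expression per transcript cluster. Per the submitters' processing notes, RMA in Affymetrix Expression Console made the values. RMA corrects background, forces 1 distribution on all arrays and summarises probes, so a change in total RNA per cell would not show. Software versions and genome build: not given in the sources used here. No batch is labelled. Array medians lay between 5.23 and 5.33, the number of arrays limits the precision, and 0 columns of other samples were present. Of 34365 clusters 23521 had 1 symbol in the platform annotation, 1814 several and 9030 none listed. The brightest cluster stood for each of 22180 genes, with no filter on level. All 12 arrays entered 1 fit with 4 group means (limma 3.58.1 in R 4.3.3, lmFit and eBayes, 8 residual and 4.56 prior degrees of freedom). Tests were two-sided, with Benjamini-Hochberg adjustment over all genes of each of 5 comparisons. The model was also tested on simulated data with known changes. The 10 genes, the lists of relatives, partners and markers, and the tests were chosen with earlier results of these data known. Named are the 10 genes, list genes past the threshold that changed by at least 1 on the log2 scale, the brightest gene of each list, and the 5 nearest genes to Anxa2 and to S100a6; other list genes named were picked after their values were seen.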

Additional observations from a re-analysis of the deposited data

Results flagged for a closer look

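The Foxp3-positive effect differed between CD8 and CD4 cells, by the interaction term of the limma fit, for 3 of the 10 genes, where 13.5% of all genes passed. Among genes at or above the median level, tested alone, 32.8% passed. The difference, CD8 effect minus CD4 effect on the log2 scale, was 2.00 for S100a6 (limma adjusted p = 0.000314), -1.11 for Anxa2 (adjusted p = 0.0392) and -0.44 for S100a10 (adjusted p = 0.0369). The calls of Anxa2 and S100a10 were each lost in 9 of 12 fits that left out 1 array, and the count ran from 1 to 4, while S100a6 passed in all 12. With the replicate block Anxa2 no longer passed (adjusted p = 0.051). S100a6 was low in all 3 CD4 Foxp3-positive arrays, while S100a10 was high in all 3 CD8 control arrays. Lineage and days of culture cannot be told apart in these differences.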

How the results depend on the processing

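Falls of Anxa1, Anxa2, S100a4, Lgals1 and Lgals3 in both lineages, of Anxa6 and S100a10 in CD8 cells and of S100a6 in CD4 cells passed under all alternatives run: trended and robust eBayes, median centring, quantile normalization, a filter on dim genes, averaged clusters, only the groups compared, array weights, the replicate block and each array left out. The falls numbered 8 in CD8 and 7 in CD4 cells, and from 7 to 8 and from 6 to 8 with an array left out. They numbered 9 and 9 with trended and robust eBayes, where 22.1% and 24.2% of all genes passed in either direction. With the filter they numbered 10 and 9, where 43.9% and 44.4% of the genes tested passed. With the replicate block they numbered 7 and 8, where 19.7% and 22% of all genes passed. S100a6 in CD8 cells no longer passed with the block (limma adjusted p = 0.0703). It also did not pass after quantile normalization (0.0552). The interaction was called for 5 genes with trended and robust eBayes (16.2% of genes tested) and 5 with the filter on dim genes (32.8%). It was called for 3 in the main fit, and for 1 to 4 with an array left out. The control groups differed for 5 genes with trended and robust eBayes (22.9% of genes tested) and 5 with the filter (45%). With the replicate block they differed for 5 (20.7%), and with an array left out for 3 to 4. The Foxp3-positive groups differed for 2 to 3 with an array left out. Among all genes, the Foxp3-positive groups differed for 1044 genes and for 674 without CD8 Foxp3-positive replicate B. The filter left 11090 genes to test; other causes were not tested. The block also made S100a11 in CD4 cells and Anxa1 for the interaction pass (adjusted p = 0.0402 and 0.0108), and ended the Anxa2 interaction (0.051); between controls it added Anxa1 and S100a11 (0.0107 and 0.0369). Over 18 pairs of same-lettered arrays, deviations from group means correlated at -0.102 to 0.137, above 0.1 in 2. In 9 of the 18 the array of the same letter gave the highest r among the 3 arrays of the other group, and some would do so without any pairing. These included every pair of CD8 Foxp3-positive with CD8 control arrays (0.054, 0.135 and 0.137). Whether arrays of a letter shared a culture or a run is not labelled and was not tested. Signs turned only for differences near 0 that had not passed: S100a11 for the interaction with median centring (-0.02) and with an array left out (-0.16 to 0.16), S100a10 in CD4 cells with quantile normalization (0.05), and, with an array left out, the interactions of Anxa5 (-0.06 to 0.05) and Lgals3 (-0.25 to 0.19) and the difference between Foxp3-positive groups for S100a10 (-0.04 to 0.05) and Anxa6 (-0.06 to 0.15). Leaving out an array of other groups changes a call only through the shared spread estimate and the adjustment over genes.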

Other observations

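S100a1 and S100a13 lie next to each other on chromosome 3 and moved in opposite directions in the CD8 and CD4 lineages. S100a1 stood at 8.99, 9.46 and 9.33 in CD8 Foxp3-positive cells, against 7.50, 7.35 and 7.43 in CD8 controls, a rise of 1.83 ± 0.11 SE on the log2 scale (limma adjusted p = 1.67e-07). In CD4 Foxp3-positive cells it stood at 8.13, 8.05 and 8.23, against 9.20, 9.30 and 9.16 in CD4 controls, a change of -1.08 ± 0.11 (adjusted p = 1.34e-05). S100a13 averaged 10.23 against 8.91 in CD8 Foxp3-positive and control cells, and 9.52 against 10.22 in CD4 Foxp3-positive and control cells (1.31 ± 0.10 and -0.70 ± 0.10). The interaction, CD8 effect minus CD4 effect, was 2.92 ± 0.16 for S100a1 and 2.01 ± 0.14 for S100a13 (adjusted p = 3.93e-07 and 3.15e-06). The gene models of the pair overlap in the RefSeq table, so their signals cannot be taken as fully separate.

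The described S100 genes also lie on chromosome 3. S100a4 and S100a6 are separated there by S100a5 alone, and S100a11 and S100a10 are direct neighbours. Over the 12 arrays the neighbours S100a10 and S100a11 correlated at Pearson r = 0.753, and S100a4 and S100a6 at 0.849, as a description over arrays that share the group differences. Between CD8 and CD4 controls the log2 differences were 0.44 ± 0.09 for S100a10, 0.53 ± 0.18 for S100a11 (not past the threshold, limma adjusted p = 0.0552), 1.06 ± 0.16 for S100a4 and -0.33 ± 0.18 for S100a6 (not past the threshold, adjusted p = 0.263).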
